A study of Tribolium castaneum with 16 samples.

Results

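Larval brain and larval thoracic epidermis of the red flour beetle Tribolium castaneum were compared by their lists of open chromatin regions. The 8 samples compared were 2 lists titled larval CNS and 6 lists of lateral epidermis, 3 from the second thoracic segment (T2) and 3 from the third (T3), out of 14 FAIRE lists in the series. The 190324 peaks of the 8 lists were merged wherever they shared 1 bp or more, which gave 48878 regions. Regions called in both CNS lists and no epidermis list are named CNS-only, regions called in all 6 epidermis lists and no CNS list epidermis-only, and regions called in all 8 lists shared. These classes held 11757, 1084 and 6383 regions, and the other 29654 regions were called in some other combination of lists.

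FAIRE recovers DNA that is poor in nucleosomes, because fixed and sheared chromatin that carries few bound proteins stays in the aqueous phase of a phenol-chloroform extraction. Active promoters and enhancers are typical sources of such DNA. The insect brain is made mainly of neurons and glia, and the lateral thoracic epidermis is an epithelium that secretes cuticle and, at this stage, holds the wing primordium. The T2 primordium forms the elytron, the hardened forewing of beetles, and the T3 primordium forms the hindwing.

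All 8 samples came from last-instar larvae of the strain pu11. This is an enhancer-trap line, and the larvae for the epidermis samples were picked by the activity of the trap. The tissue of the CNS samples was labelled brain, and elytron or hindwing discs were dissected with the lateral epidermis around them. CNS chromatin was fixed for 20 minutes and epidermis chromatin for 30 minutes, and the recorded barcodes were 6 nt long for CNS and 8 nt long for epidermis. Fixation, barcode length and tissue cannot be told apart. The labels do not say whether replicates came from separate dissections, so p-values measure the spread between these samples, which may be technical. The tissues could not be checked against marker genes, because the lists name no genes and no annotation of their build was used.

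CNS replicates 1 and 2 had 36080 and 34095 peaks. The 6 epidermis lists had from 9725 peaks in T2 replicate 1 to 24689 in T3 replicate 3. The background depth recovered from each list, the number of extended reads expected over a base, was 9.85 and 5.91 in CNS and between 1.96 and 5.77 in epidermis, so both CNS lists were deeper than every epidermis list. The total number of reads was not given. T2 replicate 1 and T3 replicate 1 stood apart from the other 4 epidermis lists in ways that touch the classes, and values that rest on them are given with and without them.

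More regions were called only in brain than only in epidermis. CNS-only regions made up 24.1% of the merged regions, epidermis-only regions 2.22% and shared regions 13.1%. These counts are a description, since the rule asked for calls in 2 brain lists or in 6 epidermis lists, which were also shorter. Regions called in 1 CNS list and no epidermis list numbered 6753, and regions called in 1 epidermis list and no CNS list numbered 4164. Both CNS lists shared a further 3964 regions with exactly 5 epidermis lists.

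**Figure D1:**
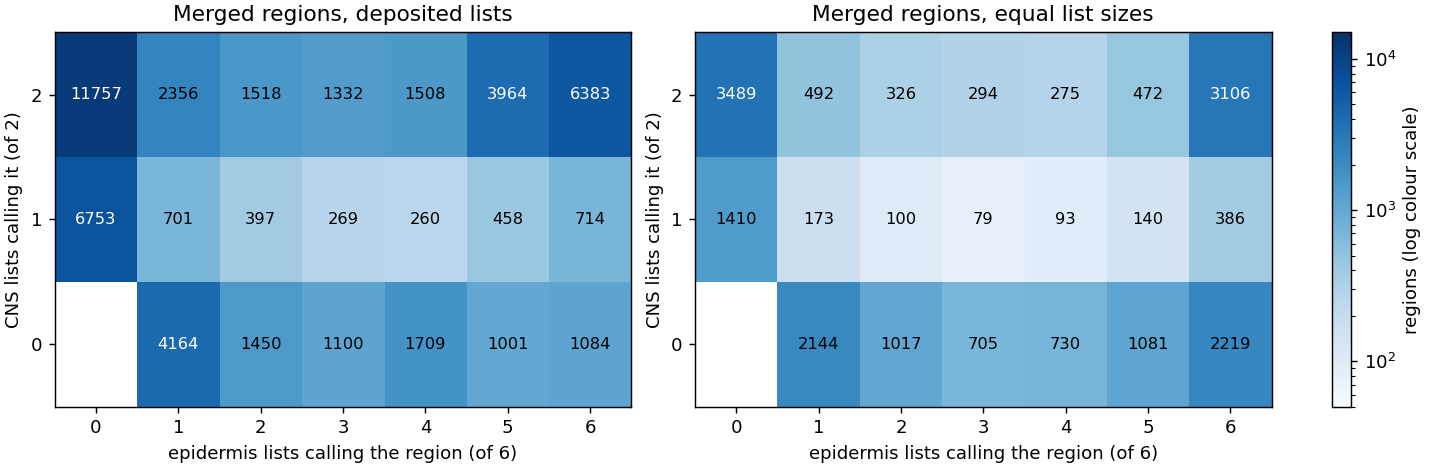
Number of merged regions by the number of CNS lists (vertical axis, of 2) and epidermis lists (horizontal axis, of 6) that called them, for the deposited lists and for lists of equal size; colour follows the count on a log scale. The corners hold 11757 CNS-only, 1084 epidermis-only and 6383 shared regions in the deposited lists, and 3489, 2219 and 3106 at equal sizes.

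Keeping the best 9725 peaks of each list by −log10 p, the length of the shortest list, brought the classes closer together. T2 replicate 1 is that list and stayed whole, so its weakest peaks were kept, down to a −log10 p of 3.15, while the other lists ended between 12.9 and 34.8. Of 18731 regions merged from these lists, 3489 (18.6%) were CNS-only, 2219 (11.8%) epidermis-only and 3106 (16.6%) shared. The rule still asked for calls in both CNS lists or in every epidermis list, and the order of the classes holds for this rule. A further 1410 regions were called in 1 CNS list and no epidermis list, and 2144 in 1 epidermis list and no CNS list. Of the 3489 CNS-only regions at equal sizes, 1674 (48.0%) lay in a CNS-only region of the deposited lists, and 1815 (52.0%) in one that at least 1 deposited epidermis list called. Of the 2219 epidermis-only regions at equal sizes, 477 (21.5%) lay in an epidermis-only region of the deposited lists, 1742 (78.5%) were called in at least 1 deposited CNS list and 1240 (55.9%) were called in all 8 deposited lists. Most of the epidermis class at equal sizes was therefore called in CNS too, below the best 9725 CNS peaks. Scaling every list to the depth of T2 replicate 1 left 25003 and 30558 CNS peaks and from 9725 to 20370 epidermis peaks, with 7995 CNS-only, 1367 epidermis-only and 5818 shared regions.

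**Figure D2:**
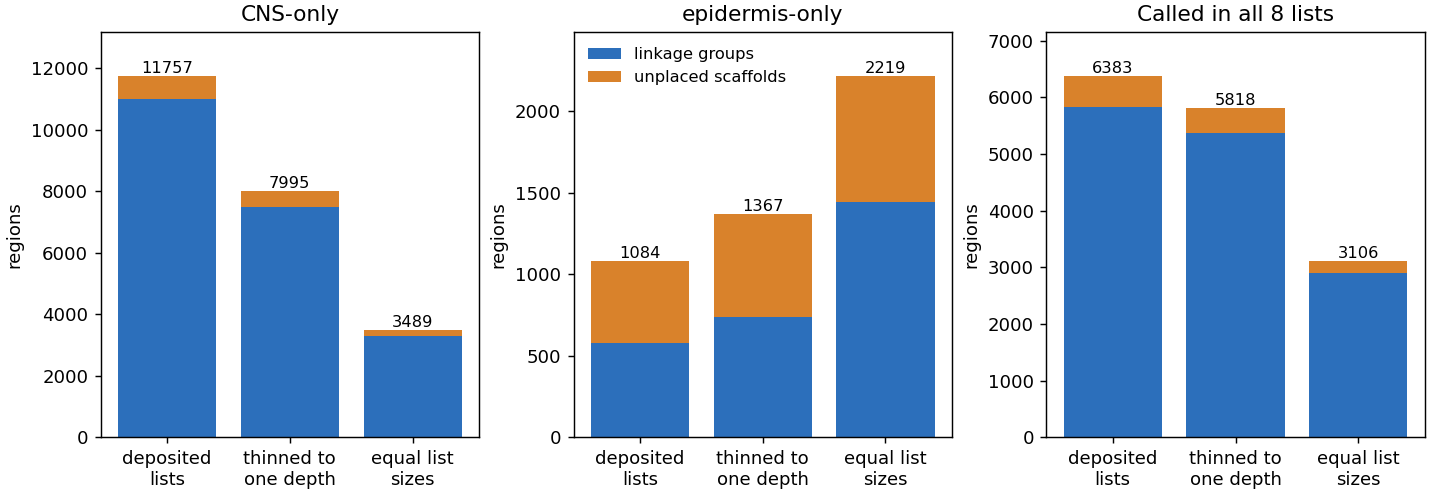
Number of CNS-only, epidermis-only and shared regions with the deposited lists, after thinning to one depth and at equal list sizes, split into regions on linkage groups and on unplaced scaffolds. CNS-only regions outnumbered epidermis-only regions in all 3 settings, and 509 of 1084 epidermis-only regions of the deposited lists lay on scaffolds. That order holds for the rule used, which asked for calls in both CNS lists or in all 6 epidermis lists.

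A single list held many regions just outside the classes. Of the 3964 regions called in both CNS and 5 epidermis lists, 3822 (96.4%) lacked only T2 replicate 1, the shortest and shallowest list. Of the 1001 regions called in 5 epidermis lists and no CNS list, 768 (76.7%) lacked T2 replicate 1 and 206 (20.6%) lacked T3 replicate 1. Without T2 replicate 1 there were 10204 shared, 1852 epidermis-only and 11766 CNS-only regions. T3 replicate 1 shared more of these calls with CNS. Of the 2356 regions called in both CNS and 1 epidermis list, 1244 (52.8%) were called in T3 replicate 1, against 9 to 300 for each of the other 5 lists. Without T3 replicate 1 there were 13039 CNS-only and 1291 epidermis-only regions.

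The classes end at the q threshold of the lists. The weakest call that a CNS-only region rested on had a −log10 q from 1.33 to 215.6 with a median of 9.89, and that of an epidermis-only region from 1.37 to 64.6 with a median of 7.73. Just outside, the single epidermis call in the 2356 regions above had a −log10 q from 1.32 to 17.6 with a median of 4.52. The single CNS call in the 714 regions called in all 6 epidermis lists had one from 1.33 to 37.4 with a median of 7.70. A −log10 q of at least 2 in place of the deposited threshold gave 11750, 1085 and 6333 regions.

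CNS-only regions were narrow. Their median width was 258 bp, against 449 bp for shared regions, and 87 of 11757 (0.740%) were wider than 1 kb. On linkage groups, their median fold, the authors' enrichment over the background of the peak caller, was 3.69 in CNS replicate 1 and 4.48 in replicate 2. Their median percentile of fold within those lists, on which 100 is the highest peak, was 46.8 and 45.7, near the middle, while that of shared regions was 73.9 and 75.5. The local background at their summits was 1.11 times the genome-wide background of the list in both.

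The strongest CNS-only regions were among the highest peaks of the brain lists. They are the 8 regions with the largest value of their smaller within-list fold percentile that also stayed CNS-only at equal list sizes. Positions count from 1 on the build of the lists, which is not given in the sources used here. ChLG6:11032048-11032548 had folds of 21.3 and 33.3 in CNS replicates 1 and 2. ChLG4:8490647-8491121 had folds of 20.9 and 32.0. ChLG7:1071144-1071627 had folds of 20.4 and 29.8.

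Each of these lay above percentile 99.9 of fold in both CNS lists. ChLG2:15551663-15552256 had folds of 20.0 and 29.5. ChLG3:970544-971208 had folds of 19.9 and 29.1. ChLG3:15723163-15723512 had folds of 19.1 and 30.1. The last 2 of the 8 lay on scaffolds, DS497665.1:658269-659117 with folds of 20.7 and 28.5 and DS497672.1:108635-109428 with folds of 19.9 and 28.5. All 8 regions, from 350 to 849 bp wide, were called in all 6 embryo lists of the series, which the choice of regions did not use. Over the whole class, 1317 of 11757 CNS-only regions (11.2%) were called in all 6 embryo lists, against 54.0% of shared regions.

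Epidermis-only regions fell into a linkage-group part and a scaffold part of about equal size. On linkage groups there were 575 regions with a median width of 429 bp and a median fold between 3.36 in T3 replicate 1 and 4.35 in T2 replicate 3. Their local background was between 2.94 and 3.13 times the genome-wide value. Their median fold percentile was 29.2 in T3 replicate 1, 26.4 in T2 replicate 1 and between 52.0 and 57.4 in the other 4 lists.

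The leading epidermis-only region, ChLG6:278353-278747, had folds of 11.4, 11.6 and 11.9 in T2 replicates 1 to 3 and of 16.1, 11.05 and 11.3 in T3 replicates 1 to 3. It was called in none of the 6 embryo lists. ChLG7:1581395-1581891 had folds from 8.29 to 11.5 over the 6 epidermis lists with a median of 10.2. It was called in 2 embryo lists, both aged 0 to 24 h.

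The within-list percentiles of fold in T2 and T3 lists overlapped in both of these regions and in the next 3. ChLG6:11357354-11357971 had folds from 6.04 to 9.32 with a median of 8.15, and 3 embryo lists called it. ChLG1:8289729-8290239 had folds from 7.06 to 12.1 with a median of 8.29, and 4 embryo lists called it. DS497665.1:1048772-1048964, on a scaffold, had folds from 5.75 to 9.11 with a median of 8.18, and 2 embryo lists called it.

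The other 3 of the 8 leading regions were short stretches of small scaffolds that all 6 embryo lists called as well. Over the whole class, 291 of 1084 epidermis-only regions (26.8%) were called in all 6 embryo lists. GG694300:104-338 had folds from 7.78 to 14.4 with a median of 8.99. GG695812:1394-1675 had folds from 7.39 to 11.4 with a median of 9.07. GG694198:1946-2168 had folds from 7.13 in T3 replicate 1 upwards, with a median of 8.90. In all 3 the within-list percentile of fold was highest in T2 replicate 1, at 99.6, 98.1 and 97.6, and the percentiles of T2 and T3 lists overlapped. These 8 regions kept their class at equal list sizes, as the rule for naming them required, but GG694300:104-338 left it when peaks within 100 bp of each other were merged.

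Unplaced scaffolds held 509 of the 1084 epidermis-only regions (47.0%), against 757 of 11757 CNS-only regions (6.44%), 551 of 6383 shared regions (8.63%) and 13.2% of all merged regions. The 509 regions lay on 357 scaffolds, with at most 10 on any one. Their local background was between 6.27 and 6.76 times the genome-wide background of each list. At shared regions on linkage groups the median of this ratio was 1.96 in every larval list, so the lists may not measure it separately. Many were broad: 165 epidermis-only regions were wider than 1 kb, 111 of them on scaffolds, and these 165 made up 48.9% of the bases of the class. DS497958.1:1-20413 was called from its first base almost to the last peak end on that scaffold, with folds of 4.56, 5.10 and 4.68 in T2 replicates 1 to 3 and of 3.13, 4.87 and 4.62 in T3 replicates 1 to 3. GG695665:1-10185 and GG695051:1-8493 were covered in full in the same sense, with folds from 3.34 to 5.59 and from 3.59 to 5.25. These broad regions were named after their values had been seen.

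The scaffold share also differed between whole lists of equal size. Of the best 9725 peaks, 6.64% and 6.84% lay on scaffolds in CNS replicates 1 and 2. In epidermis the share was 20.7%, 18.3% and 18.2% in T2 replicates 1 to 3 and 14.7%, 18.0% and 18.5% in T3 replicates 1 to 3. The tissues did not overlap, and CNS was 11.3 percentage points lower (exact two-sided permutation p = 0.0357, n = 2 and 6, the smallest that 28 splits allow, adjusted p = 0.0429 over 12 features of the lists). With any 1 of the 8 lists left out, the adjusted p was above the threshold, from 0.0519 to 0.0571 without an epidermis list and 0.171 without a CNS list (exact permutation). Every other split breaks up a replicate group, so the likeness of replicates alone can give this p. The adjusted p also rests on the shares of the linkage groups, which are tied to the scaffold share.

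Epidermis-only regions were rarest, per length, on ChLG1, which carries the X in the linkage map of this species. It held 16 of them, 1.47 per Mb, against 2.42 to 4.86 per Mb on the other 9 linkage groups, and 700 CNS-only regions, 64.4 per Mb, against 31.3 to 90.2. Of the best 9725 peaks, 5.59% lay on ChLG1 in both CNS lists and from 4.06% to 4.90% in the epidermis lists (exact two-sided permutation p = 0.0357, n = 2 and 6, adjusted p = 0.0429). This was not particular to ChLG1: ChLG2 and ChLG4 to ChLG10 gave the same p without overlap, with larger differences of 1.98 points on ChLG7, 1.97 on ChLG4, 1.57 on ChLG2 and 1.31 on ChLG5. On ChLG1 the difference of 1.17 points fell to 0.644 when only linkage groups were counted, with means of 6.06% and 5.41% (exact permutation p = 0.0714, adjusted p = 0.131). ChLG3 had the fewest CNS-only regions per length. Its share of the best peaks was 13.9% in CNS and 13.6% in epidermis (exact permutation p = 0.50, adjusted p = 0.50), but counted on linkage groups alone it was 14.8% in CNS and 16.6% in epidermis, without overlap (exact permutation p = 0.0357, adjusted p = 0.0786). The ratio of classes per length is a description, since the classes rest on the calls themselves.

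The class of a peak varied with its rank in its list. Each list was cut by −log10 p into 10 parts of equal size, called deciles here. In the best decile of the CNS lists, 53.5% and 58.4% of peaks lay in shared regions and 17.0% and 14.8% in CNS-only regions. In the last decile, 5.18% and 4.63% were shared and 42.3% and 34.4% CNS-only. In the best decile of the 5 longer epidermis lists, between 77.2% and 95.1% of peaks were shared and between 1.61% and 8.51% epidermis-only. T2 replicate 1 departed from this, with 49.3% shared and 17.1% epidermis-only, and 60.2% of its best decile lay on scaffolds against 10.6% to 29.0% in the other epidermis lists. In T3 replicate 1, 98.3% of the best decile lay in regions that at least 1 CNS list called, against 82.9% to 95.1% in the other epidermis lists.

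**Figure D3:**
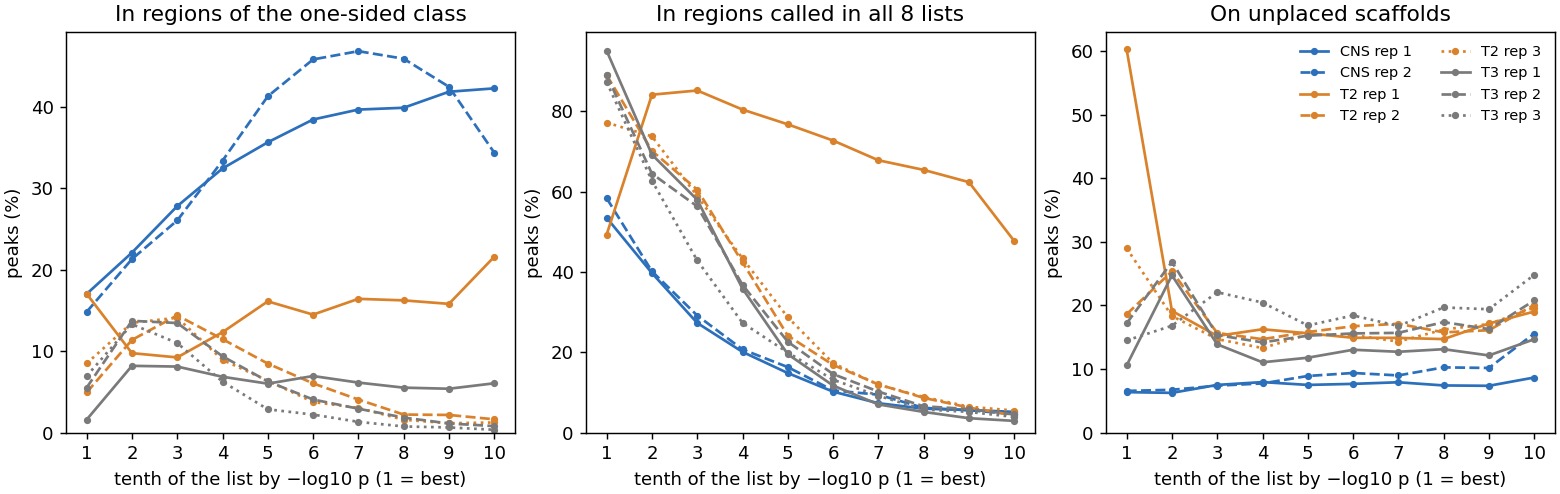
Share of peaks (%) in each decile of the 8 lists, ordered by −log10 p from best to weakest, that lay in a region of the one-sided class of that tissue, in a shared region, or on an unplaced scaffold. The CNS-only share of the CNS lists rose from 17.0% and 14.8% in the best decile, the shared share was lower in the last decile than in the best in all 8 lists, and T2 replicate 1 had 60.2% of its best decile on scaffolds.

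Openness at shared regions was compared by rank, because a fold belongs to its own list. In each list the largest fold within each of the 6383 shared regions was ranked over these regions and written as a percentile, so that 100 is the most enriched shared region of that list. Across regions, the Spearman correlation of percentiles was 0.929 for the CNS pair, between 0.666 and 0.858 for the 15 epidermis pairs and between 0.298 and 0.363 for the 12 pairs of CNS with epidermis. These are descriptions across regions, which are not independent replicates. The order of shared regions was less alike between tissues than within either tissue.

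Of the 6383 shared regions, 2679 (42.0%) differed in rank between CNS and epidermis (limma on normal scores of the ranks, CNS against the mean of T2 and T3, Benjamini-Hochberg adjusted p below 0.05). CNS ranked higher in 1294 (20.3%) and epidermis in 1385 (21.7%). The median difference was 39.3 percentile points in the first set and −38.6 in the second. In 1232 of the 1294 the CNS percentiles were both higher than any of the epidermis percentiles, and in 1308 of the 1385 both were lower. Over all shared regions, past the threshold or not, the CNS pair was higher than every epidermis list in 1559 regions (24.4%) and lower in 1672 (26.2%). The last region inside the threshold had an adjusted p of 0.0498 and a difference of 20.1 points, and the first outside had 0.05005 and −20.4 points. These are not bounds on the difference. It was as small as 1.90 points in a region with CNS higher and 0.695 in one with epidermis higher. Regions not past the threshold ran from −43.9 to 43.5 points. At equal list sizes 1107 of 3106 shared regions (35.6%) differed, 538 (17.3%) with CNS higher and 569 (18.3%) with epidermis higher. Without CNS replicate 1 the counts were 540 and 558, and without CNS replicate 2 they were 607 and 665. Without T2 replicate 1, which left 10204 shared regions to test, they were 2283 and 2462.

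**Figure D4:**
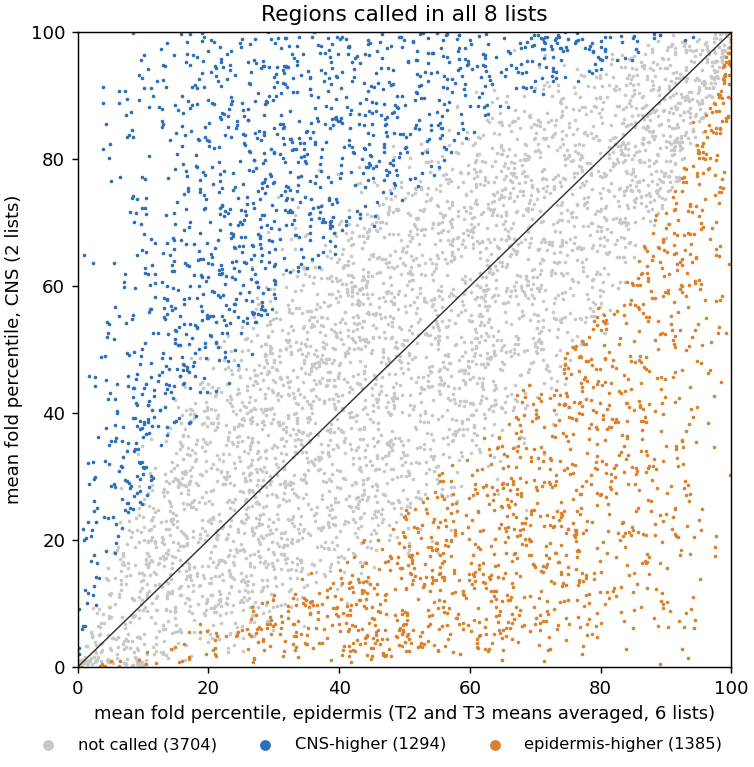
Mean fold percentile over the 2 CNS lists (vertical axis) and over the epidermis lists (horizontal axis, mean of the T2 and T3 means) at the 6383 regions called in all 8 lists, with the line of equal rank. The 1294 regions ranked higher in CNS lie above the line and the 1385 ranked higher in epidermis below it. The 3704 regions that did not pass the threshold, which are not shown to rank alike, lie on both sides of it.

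Named here are the 8 regions in each direction with the largest difference of normal scores among those past the threshold whose tissues did not overlap. The choice used the difference, so their values are a description. ChLG7:5937373-5937894 stood at percentile 99.9 in both CNS lists, with folds of 19.1 and 28.7. In epidermis it stood between percentiles 2.14 and 16.4 with a median of 9.49, and its folds were between 3.05 and 4.36. It differed by 91.5 points (limma adjusted p = 2.77e-06).

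ChLG5:14146633-14147402 held the highest fold of all shared regions in both CNS lists, 22.8 and 35.5. Its epidermis percentiles ran from 24.1 to 54.2, so it was of middling rank there, with folds between 4.80 and 6.27 (limma adjusted p = 2.77e-06). ChLG3:7770445-7771137 stood at percentiles 99.8 and 99.7 in CNS and between 9.22 and 20.1 in epidermis (limma adjusted p = 2.82e-06). The remaining named regions with CNS higher were ChLG5:10015736-10017102, ChLG3:4561854-4562277, ChLG5:18860534-18862003, DS497712.1:56862-57336 and ChLG8:15671194-15672278, with limma adjusted p between 1.34e-05 and 0.000181. In 4 of these 5 T2 replicate 1 ranked highest of the epidermis lists, at percentiles 61.2, 60.1, 26.2 and 55.6 in the order given, and in ChLG8:15671194-15672278 T3 replicate 1 did, at 27.3.

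On the epidermis side, ChLG8:16714493-16715009 stood between percentiles 88.9 and 95.7 in the 6 epidermis lists, with folds between 8.53 and 12.3. It was at percentiles 2.17 and 0.775 in CNS, with folds of 2.12 and 2.09, a difference of −91.9 points (limma adjusted p = 3.43e-06). ChLG3:17918190-17918811 stood between percentiles 84.3 and 92.4 in epidermis and at 0.728 and 0.0705 in CNS (limma adjusted p = 3.43e-06). Both were near the floor of what CNS lists called and near the top in every epidermis list.

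ChLG3:8508160-8508571 was different, since it stood between percentiles 99.7 and 99.98 in the epidermis lists, with folds between 13.5 and 19.0, and at percentiles 34.8 and 25.6 in CNS (limma adjusted p = 8.41e-06). The other 5 were ChLG7:17638206-17638648, ChLG7:14528357-14529050, GG694582:31-844, ChLG1:4022921-4023338 and ChLG9:14062459-14062871, with limma adjusted p between 4.27e-06 and 0.000183. GG694582:31-844, on a scaffold, had the widest spread among epidermis lists of these 8, from percentile 24.1 in T3 replicate 1 to 95.0 in T2 replicate 1. CNS-higher regions were wider than epidermis-higher regions, with medians of 500.5 and 432 bp, and 85 (6.57%) against 41 (2.96%) were over 1 kb. Over all 6383 shared regions the median was 449 bp, and 326 (5.11%) were over 1 kb.

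The position of the strongest summit within shared regions was compared between tissues, a measure that the classes did not use. For each pair of lists the distance between the strongest summits of a region was taken. It exceeded 100 bp in 5.36% of regions for the CNS pair, in 3.98% to 6.44% for epidermis pairs and in 12.8% to 14.4% for pairs of CNS with epidermis. Cross-tissue pairs exceeded same-tissue pairs by 8.49 percentage points (exact one-sided permutation p = 0.0357, n = 2 and 6, the smallest that 28 splits allow). Here too, all other splits break up a replicate group, so the likeness of replicates alone can give this p. The p-values of summit distance were not adjusted. The median distance was 10 bp for the CNS pair, from 15 to 20 bp for epidermis pairs and from 21 to 24 bp across tissues. In shared regions of at most 500 bp, the share over 100 bp was 1.98% for the CNS pair, 1.55% on average for epidermis pairs and 3.82% across tissues, a difference of 2.25 points at the same p.

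Calls in the embryo lists, which took no part in making the classes, showed which larval regions were already called in whole embryos of the strain Georgia I. The 6 lists came from embryos aged 0 to 24, 24 to 48 and 48 to 72 h after egg laying, 2 lists each. CNS-only regions were called in 70.7% and 75.4% of cases in the 0 to 24 h lists, 35.5% and 46.8% at 24 to 48 h, and 34.2% and 14.7% at 48 to 72 h. Epidermis-only regions were called in 43.7% and 40.4%, 57.4% and 47.3%, and 58.9% and 56.1% of cases. Shared regions were called most often, from 58.9% in the last list to 93.1% in 0 to 24 h replicate 2. CNS-only regions lay above epidermis-only regions in both lists of the first stage and below them in 3 of the 4 later lists by 21.9 points or more. These 3 were 24 to 48 h replicate 1 and 48 to 72 h replicates 1 and 2. Their differences were −7.78, −13.8 and −28.7 points on linkage groups and −37.9, −36.0 and −54.8 on scaffolds. In the fourth, 24 to 48 h replicate 2, the difference was −0.49 points, and it was 15.3 on linkage groups, 2.36 at 50% coverage and 0.54 for regions up to 1 kb.

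The difference, CNS-only minus epidermis-only, averaged 31.0 points at 0 to 24 h, −11.2 at 24 to 48 h and −33.0 at 48 to 72 h, and −4.40 ± 30.4 (SD, n = 6 lists) over all lists (exact two-sided sign-flip permutation p = 0.719, adjusted p = 0.719 over 3 measures). The first stage against the later 4 lists gave an exact permutation p of 0.0667, the smallest that 2 against 4 allow. The 0 to 24 h lists were also the longest, with 31485 and 33884 peaks against 10769 to 21309 in the later lists. With all lists cut to equal size the difference was −11.7 and 3.89 points at 0 to 24 h and between −5.14 and −1.91 in the later lists. The 3489 CNS-only regions then made were called in 37.9% and 40.1% at 0 to 24 h and in 41.6% to 45.2% later. The classes were remade from the cut larval lists, so these are not the 11757 regions looked up before. Those were not looked up in cut embryo lists, so the part of embryo list length in their lower later share was not tested. On linkage groups alone 28.3% and 28.5% of epidermis-only regions were called at 0 to 24 h, and on scaffolds 61.1% and 53.8%.

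Shared regions were split by their larval ranks and looked up in the embryo lists. Regions ranked higher in CNS were called more often than regions ranked higher in epidermis in all 6 embryo lists, by 5.75 to 22.4 points with a mean of 16.2 ± 7.37 (SD, n = 6 lists; exact two-sided sign-flip permutation p = 0.0313, the smallest that 6 lists allow, adjusted p = 0.0469). In 48 to 72 h replicate 2, for example, 71.5% of the CNS-higher and 50.3% of the epidermis-higher regions were called. Among shared regions that an embryo list did call, CNS-higher regions also had the higher mean fold percentile in all 6 lists, by 1.28 to 13.3 points (mean 7.49 ± 4.62, SD, n = 6 lists; exact sign-flip permutation p = 0.0313, adjusted p = 0.0469). The gap in percentile was 12.7 points at 0 to 24 h, 6.85 at 24 to 48 h and 2.89 at 48 to 72 h. The same sets of regions were looked up in all 6 lists, and lists of one stage are not independent stages. The p-values therefore measure agreement between these lists. The comparison was not repeated at equal list sizes, and CNS-higher regions were also the wider set. The part of width in these differences was not tested.

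**Figure D5:**
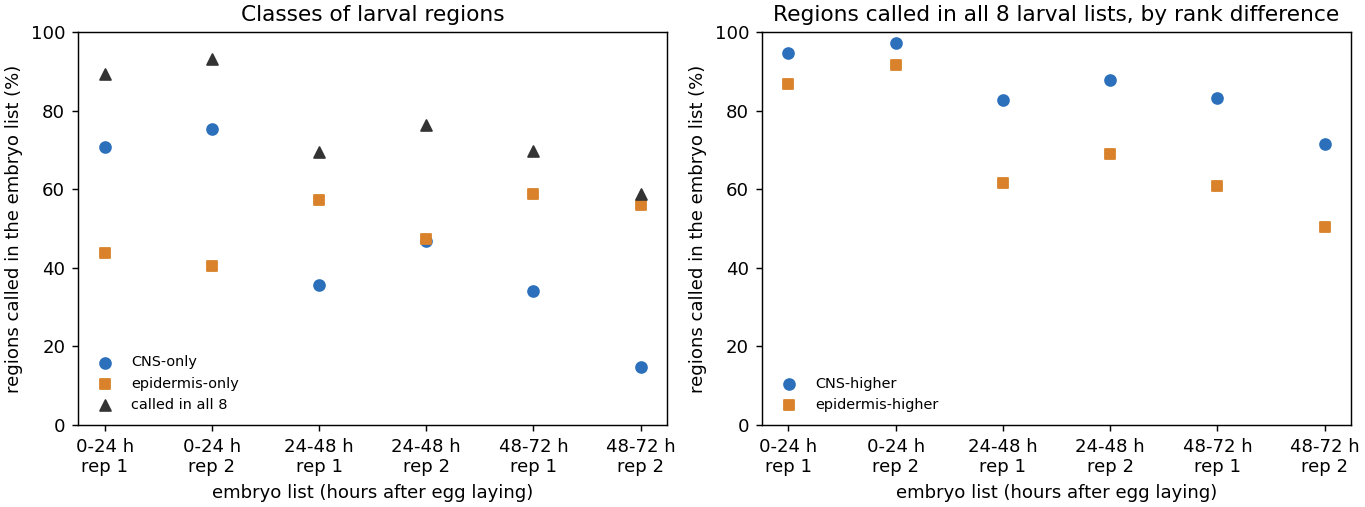
Share of larval regions (%) called in each of the 6 embryo lists, for the 3 classes (left) and for shared regions ranked higher in CNS or in epidermis (right). CNS-only regions were called in between 14.7% and 75.4% of cases and epidermis-only regions in between 40.4% and 58.9%. The 0 to 24 h lists were also the longest. At equal list sizes the classes were remade, and the 3489 CNS-only regions of that setting were called in 37.9% to 45.2%. CNS-higher shared regions lay above epidermis-higher ones in all 6 lists.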

How the data were processed

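The members, classes and lists were chosen with earlier results of these data known. Each of the 14 deposited peak lists held narrow peaks of 1 FAIRE sample; 2 input samples were not analysed here. The deposited fold enrichment, −log10 p and −log10 q of a peak were the authors' values within that list, and the deposited score column, the authors' rescaled −log10 q, was not used. Per the submitters' processing notes, the tools included Trimmomatic 0.32, Bowtie2 2.2.3, SAMtools 0.1.12a, deepTools 2.5.2 and MACS2 2.1.1.20160309, without their roles. The genome build is not given in the sources used here, so coordinates are those of the lists, counted from 1, and gene names, motifs, base composition and marker lists planned for these regions were not analysed here.

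Samples were grouped by their titles. Peaks of the 8 larval lists were merged at an overlap of 1 bp. Depth was recovered from fold and −log10 p under the Poisson model of the caller. For thinning, summit pileup and background were scaled to the depth of T2 replicate 1, and peaks with a −log10 p of at least 3.15 were kept. At shared regions, the largest fold of each list was ranked, converted to normal scores and fitted with limma 3.58.1 in R 4.3.3 (groups CNS, T2 and T3, CNS against the mean of T2 and T3, Benjamini-Hochberg over all regions fitted). The fit was tested on simulated data, in which only the largest of the shifts tried was recovered, so small differences of rank can be missed. Far fewer regions were shifted there than passed the threshold in the data, so that recovery is not the sensitivity of this fit. Shares, summit distances and embryo calls were compared over lists by exact permutation tests in SciPy 1.17.1.

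Named are the 8 regions of each one-sided class whose smallest within-list fold percentile was largest and that kept their class at equal list sizes, and the 8 shared regions in each direction with the largest difference. Broad scaffold regions were named after their values were seen. Alternatives were list size, depth, q threshold, merging, peak extent, overlap, sequences used, ranked value, model, and each list left out.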

Additional observations from a re-analysis of the deposited data

Results flagged for a closer look

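Among the 6 epidermis lists, 10 of 25 measures checked had 1 list far from the other 5, where chance gives about 1 in 20. The measures are related, so they are not 10 separate events.

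T2 replicate 1 stood apart in 6 of them. It had 9725 peaks against 20616 to 24689 in the others, and a median peak width of 205 bp against 237 to 242. Its median width over the best 9725 peaks was the same 205 bp, since that is its whole list, against 307 to 327. It was the missing list in 3822 regions called in both CNS and 5 epidermis lists, against 9 to 60 for the others, and in 768 regions called in 5 epidermis and no CNS list, against 3 to 206. Of its best decile of peaks, 60.2% lay on scaffolds, against 10.6% to 29.0%.

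T3 replicate 1 stood apart in 4. It was the single epidermis caller of 1244 regions called in both CNS lists, against 9 to 300 for the others. Of its best 9725 peaks, 10.56% lay on ChLG5, against 9.53% to 9.83%, and 10.6% on ChLG9, against 9.65% to 9.90%. The median fold percentile of epidermis-only regions on scaffolds was 13.3 in this list, against 32.7 to 42.8.

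The share of regions called in embryo lists, CNS-only minus epidermis-only, had opposite signs in the first stage and later. It averaged 31.0 points in the 2 lists of 0 to 24 h and −22.1 points in the 4 later lists. One of these, 24 to 48 h replicate 2, was at −0.49 points, and it was positive on linkage groups (15.3), at 50% coverage (2.36) and for regions up to 1 kb (0.54). The exact permutation p of 2 against 4 lists was 0.0667, the smallest possible, and depth differed in the same direction, at 3.71 and 4.72 in the first stage and 1.89 to 2.53 later. With all lists cut to equal size, which also remade the classes, the difference was −11.7 and 3.89 points in the first stage.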

How the results depend on the processing

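Class sizes moved with list length and with the sequences used. At equal list sizes there were 3489 CNS-only, 2219 epidermis-only and 3106 shared regions, and on linkage groups alone at equal sizes 2679 CNS-only and 2608 shared. With all peaks, linkage groups held 575 epidermis-only regions, and asking each list to cover at least 50% of a region left 2844 shared. With each larval list left out, CNS-only ran from 11766 to 16593, epidermis-only from 1091 to 1852 and shared from 6395 to 10204, the highest of the last 2 without T2 replicate 1. Shared regions with CNS ranked higher numbered 538 at equal sizes and from 540 to 2283 with a list left out; those with epidermis higher, 569 and from 558 to 2462.

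The scaffold share, CNS minus epidermis, ran from −12.0 to −10.8 points with a list left out; without CNS replicate 1 or 2 it was −11.2 or −11.4 with an exact permutation p of 0.143, the smallest that 7 splits allow, and without any 1 epidermis list the adjusted p was 0.0519 to 0.0571. The share over 100 bp between summits, cross-tissue minus same-tissue, ran from 8.25 to 9.29 points, with the same limit when a CNS list was left out. With all peaks the ChLG3 difference turned to −1.01 points and that in median width to −1 bp. On linkage groups alone the difference turned to −1.85 on ChLG3, −0.20 on ChLG8, −0.64 on ChLG9 and −0.0238 on ChLG10. The cause was not tested.

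The mean embryo difference, CNS-only minus epidermis-only, turned to 1.84 points at 50% coverage and 9.02 on linkage groups, and ran from −12.3 to 2.99 with an embryo list left out. At shared regions, CNS-higher minus epidermis-higher ran from 14.9 to 18.3 points in share called and from 6.33 to 8.73 in percentile with an embryo list left out, where 5 lists cannot pass the threshold.

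With the replicate number as a block (replicate block), 1250 shared regions ranked higher in CNS and 1314 in epidermis. Deviations of same-numbered CNS and epidermis lists correlated between −0.034 and 0.051, and CNS replicate 1 correlated best with T3 replicate 3. Same-numbered T2 and T3 lists correlated at 0.180, 0.098 and 0.140, against −0.139 to 0.043 for other numbers. By these deviations from the group means, though not by the percentiles themselves, each T2 list was most like the T3 list of its number. That is a hint from the data and not from the design, and the numbers were not taken to pair CNS with epidermis. Settings added after seeing the data were linkage groups or scaffolds alone and regions up to 1 kb for embryo calls, linkage groups at equal sizes, and all those of summit distance and of embryo calls at shared regions. The gene-list alternatives were not run, since no annotation of the build was used. Total reads were not given, so for a region missing from a list, low depth and closed chromatin cannot be told apart.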

Other observations

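CNS-only regions were spread over the linkage groups. Of 1879 bins of 100 kb, 1378 (73.3%) held at least 1, and 416 (22.1%) held an epidermis-only region. Over the bins with any merged region, the median number of CNS-only regions was 6. The fullest CNS-only bins were ChLG5:12800001-12900000 and ChLG9:18400001-18500000, with 33 regions each and no epidermis-only region. The fullest epidermis-only bin was ChLG4:1000001-1100000, with 7, beside 4 CNS-only regions. Next came ChLG9:18300001-18400000, with 6 epidermis-only, 15 CNS-only and 15 shared regions, which adjoins one of the fullest CNS-only bins. ChLG5:11400001-11500000 held 5 epidermis-only regions out of 6 merged regions, with no CNS-only or shared region. These bins were chosen after their values were seen.

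Few shared regions were at opposite ends of the rank order. Of 6383, 80 were in the best 10% of all 8 lists. The best 10% of both CNS lists held 525, of which 62 were in the lower 50% of all 6 epidermis lists, and the best 10% of all 6 epidermis lists held 209, of which 14 were in the lower 50% of both CNS lists. Of the classes, 2468 CNS-only regions (21.0%), 267 epidermis-only regions (24.6%) and 378 shared regions (5.92%) were called in no embryo list.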
